A study of Mus musculus with 9 samples.

Results

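Hedgehog signalling in the embryonic mouse hindgut was followed through 9 genes. These were the ligands Shh and Ihh, the receptor Ptch1, the ligand-binding inhibitor Hhip, the signal transducer Smo, the transcription factors Gli1, Gli2 and Gli3, and the mesenchymal target Foxf1. Each probe set (a group of short probes summarised as 1 value) was included if the array annotation gave it 1 of these symbols and no other gene, whatever its level. This gave 21 probe sets of 9 genes, out of 45037 probe sets and 18193 genes on the array. Terminal colon RNA of mouse embryos was hybridised to 9 Affymetrix MOE430 version 2 arrays, 3 for each of 3 groups. Ednrb null embryos (arrays 29, 37 and 41) carried a lacZ allele of Ednrb, the endothelin receptor B gene, on both chromosomes. Ednrb NCC null embryos (arrays 2, 5 and 6) had the label Ednrb-FLEX(NCC-/-), a mutant of Ednrb in NCC cells. Wild type embryos (arrays 1B, 1C and 1D) had no allele named. The stage was embryonic day 14 in the sample labels, and 14.5 in the text of the series. Strain, the way the receptor was removed in NCC cells, and whether an array held 1 embryo or a pool are not stated, so the p-values cover the spread among these arrays alone, which may be technical.

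In the developing gut, the epithelium secretes Sonic and Indian hedgehog, and the surrounding mesenchyme responds. A ligand bound to Ptch1 releases Smo from inhibition, and Smo signals through the cilium to the Gli transcription factors. Gli1, Ptch1 and Hhip are themselves induced by the signal and serve as its usual readouts, while Gli2 acts mainly as activator and Gli3 mainly as repressor. Foxf1, Foxf2 and Bmp4 are known mesenchymal targets in the gut, where the pathway supports growth of the mesenchyme and patterning of the muscle layers.

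Ptch1 and Hhip are textbook targets of the pathway, and their windows around the annotated transcript start are shown for that reason. The sequences are those of RefSeq for GRCm38.p6, and 6 of the 9 members had such a window, each covering 250 bases before to 50 bases after the start. The Hhip window is chr8:80057959-80058258 on the minus strand, and the Ptch1 window is chr13:63565686-63565985 on the minus strand. Capitals mark the core of the GLI binding motif, CCACCC, or its reverse complement GGGTGG.
Hhip: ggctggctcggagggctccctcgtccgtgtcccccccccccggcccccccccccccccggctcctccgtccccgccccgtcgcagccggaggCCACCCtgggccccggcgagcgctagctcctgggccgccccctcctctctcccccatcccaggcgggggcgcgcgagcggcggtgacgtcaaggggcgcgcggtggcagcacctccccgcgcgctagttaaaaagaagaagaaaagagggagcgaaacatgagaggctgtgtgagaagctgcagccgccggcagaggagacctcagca
Ptch1: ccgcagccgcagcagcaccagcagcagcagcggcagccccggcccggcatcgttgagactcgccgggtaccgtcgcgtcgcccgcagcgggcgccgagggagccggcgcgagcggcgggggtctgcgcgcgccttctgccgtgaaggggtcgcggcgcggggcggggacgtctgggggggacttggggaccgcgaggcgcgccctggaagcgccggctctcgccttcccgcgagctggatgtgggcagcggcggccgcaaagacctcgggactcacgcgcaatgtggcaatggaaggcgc

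The Hhip window held 1 core, starting 158 bases before the transcript start, and the Ptch1 window held 0. Windows of Ihh and Gli2 held 2 cores each, and those of Smo and Gli3 1 each. The core was thus in 5 of 6 member windows, and in 31.5% of the 32851 windows of this length that were searched. Between 67.3% and 76.3% of the bases of a member window were G or C. The windows searched were not matched for this, so the shares do not measure an enrichment. The full consensus GACCACCCA, which contains the core, was searched on both strands and lay in 0 of the 6 windows and in 0.253% of the windows searched. A match is a stretch of letters and not a measured binding site, and the windows of Shh, Gli1 and Foxf1 were not analysed here.

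Values below are log2 intensities of a probe set, made by the authors with RMA, and levels are compared between groups within a probe set and not between probe sets. Differences come from a limma fit over all probe sets, and a difference is called at a Benjamini-Hochberg adjusted p under 0.05. Array medians lay between 111.66 and 115.74 on the linear scale. The brightest Ednrb probe set averaged 9.13 ± 0.33 in Ednrb null, 11.17 ± 0.14 in Ednrb NCC null, against 11.03 ± 0.07 in wild type (SD, n = 3 each). Ednrb null was 3.71-fold below wild type in it (adjusted p = 2.88e-05). In Ednrb NCC null it differed from wild type by 0.15 (adjusted p = 0.696). The place of the probes relative to the deletion is not known, and Ednrb is also expressed outside the neural crest, so the second value does not check that label. Of 4 measured markers of enteric neural crest and neurons, 3 were lower in each mutant, with array means of 6.20 to 6.91 in Ednrb null, 6.31 to 6.77 in Ednrb NCC null, against 7.86 to 9.03 in wild type. Of 13 epithelial and 7 mesenchymal markers, 0 were among the dimmest 40% of probe sets. The same was true of 3 urothelial, 6 mesothelial, 5 endothelial and 6 macrophage markers, so this does not check the tissue label. Wild type 1C was the highest array of its group in 19 of 21 member probe sets and wild type 1D the lowest in 16.

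Across the 3 comparisons, the Hedgehog response genes Gli1 and Hhip were called lower in Ednrb NCC null than in either other group. In Ednrb null neither differed from wild type beyond the test. The calls of Gli1 and Hhip against wild type were all lost with only those groups fitted. Ihh was lower in Ednrb null than in Ednrb NCC null, and neither mutant was called for it against wild type. The second-brightest Ptch1 probe set was called higher in Ednrb null than in both other groups, and the brightest was called in no comparison. No probe set of Shh, Smo, Gli2, Gli3 or Foxf1 was called in any comparison.

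Against wild type, Ednrb null had 1 of 21 member probe sets higher and 0 lower, where 2.51% of all probe sets were called higher and 2.52% lower. The arrays of both groups did not overlap for 3 member probe sets, all higher, which is 14.3% against 20.7% of all probe sets. The median member difference was 0.09, and that of all probe sets 0.03. Ednrb NCC null against wild type gave 0 higher and 3 lower, where 2.06% of all probe sets were called higher and 1.51% lower. Here arrays did not overlap for 5 members, 2 higher and 3 lower, or 23.8% against 19.3% of all probe sets. The median was -0.17 over the members and 0.01 over all probe sets, and 17 of 21 members lay below 0. Ednrb null against Ednrb NCC null gave 3 higher and 1 lower, where 1.84% of all probe sets were called higher and 2.57% lower. Arrays did not overlap for 11 members, 10 of them higher in Ednrb null, which is 52.4% against 21.3% of all probe sets. The median of that comparison was 0.29 over the members and 0.02 over all. Both mutants were set against the same 3 wild type arrays, and probe sets of a gene were measured on the same RNA of the same arrays, so neither the comparisons nor the probe sets are independent.

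**Figure D1:**
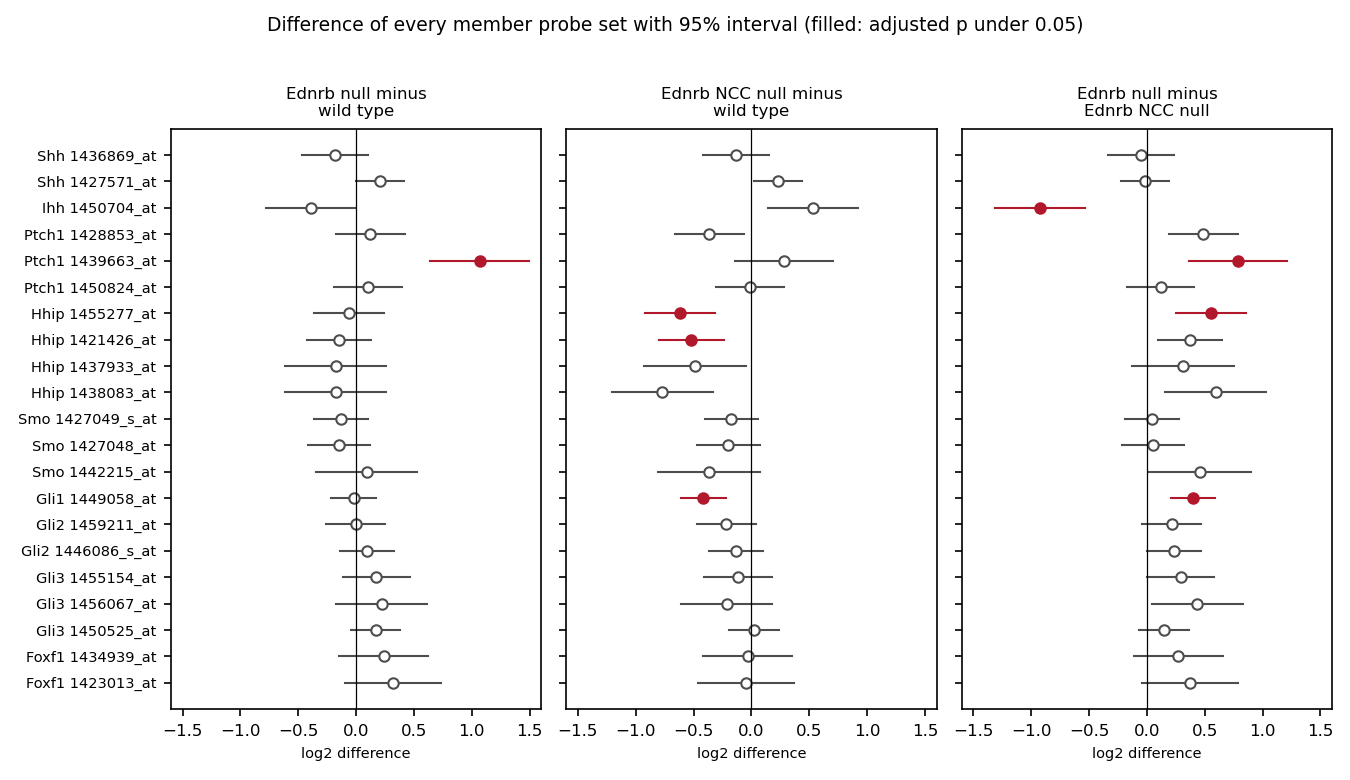
Each panel shows 1 comparison, with the log2 difference on the horizontal axis and the 21 member probe sets down the page; points are limma estimates, lines are 95% intervals, and filled red points passed an adjusted p under 0.05. In the middle panel 17 of 21 points lie left of 0, and in the right panel 18 lie right of it, with Ihh far to the left at -0.92.

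Among the ligands, Ihh was called between the mutants, and Shh was called in no comparison. Ihh, the ligand of differentiating gut epithelium, had 8.73, 8.73 and 8.33 in Ednrb null arrays 29, 37 and 41, then 9.35, 9.37 and 9.84 in Ednrb NCC null arrays 2, 5 and 6, and 8.67, 9.19 and 9.11 in wild type arrays 1B, 1C and 1D. Every Ednrb NCC null array was above every array of the other groups, while Ednrb null and wild type overlapped through wild type 1B. Ihh was 1.90-fold lower in Ednrb null than in Ednrb NCC null (log2 difference -0.92, SE 0.18, adjusted p = 0.0143). Its difference from wild type was -0.39 in Ednrb null (adjusted p = 0.281) and 0.53 in Ednrb NCC null (adjusted p = 0.136), and neither passed. The call between the mutants did not hold without Ednrb null 41 (adjusted p = 0.0593) nor without Ednrb NCC null 6 (adjusted p = 0.0574), the lowest and the highest array for Ihh.

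Epithelial markers moved in the same order as Ihh. The mean log2 level of 13 epithelial markers was 10.01 to 10.43 in Ednrb null arrays, 10.86 to 11.17 in Ednrb NCC null arrays, against 10.53 to 10.60 in wild type arrays. Their summed intensity was 27230 to 36720 in Ednrb null, 43790 to 51020 in Ednrb NCC null, against 35800 to 36700 in wild type. Between the mutants 9 of the 13 were called lower in Ednrb null. Against wild type, 2 were called lower in Ednrb null and 2 higher in Ednrb NCC null. In a comparison added after seeing the data, Ihh minus the epithelial mean of the same array was -1.64 ± 0.09 in Ednrb null, -1.47 ± 0.13 in Ednrb NCC null, against -1.58 ± 0.25 in wild type (SD, n = 3 each), with overlapping arrays in each pair of groups. In bulk tissue, fewer cells of a type and less RNA per cell cannot be told apart.

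Shh, the other epithelial ligand, had 11.83, 11.82 and 11.86 in Ednrb null arrays, then 11.80, 11.69 and 12.17 in Ednrb NCC null arrays, and 12.01, 12.19 and 11.86 in wild type arrays for its brightest probe set. The groups overlapped, and the differences from wild type were -0.18 in Ednrb null (95% interval -0.47 to 0.10) and -0.13 in Ednrb NCC null (-0.42 to 0.15). Ednrb null minus Ednrb NCC null was -0.05 (-0.33 to 0.23). Relative to the epithelial marker mean, however, Shh was 1.56, 1.40 and 1.85 in Ednrb null arrays, 0.94, 0.73 and 1.01 in Ednrb NCC null arrays, and 1.48, 1.61 and 1.26 in wild type arrays. On that scale Ednrb NCC null lay below both other groups with no overlap. The epithelial mean subtracted was itself highest there, at 10.86 to 11.17 against 10.53 to 10.60 in wild type. Whether other genes part in the same way on that scale was not tested. The second Shh probe set was among the dimmest 40% and had 5.22, 5.22 and 5.34 in Ednrb null arrays, then 5.22, 5.22 and 5.39 in Ednrb NCC null arrays, and 4.97, 5.19 and 4.99 in wild type arrays. Its arrays in either mutant were all above those in wild type by a small margin, and its adjusted p against wild type was 0.283 for Ednrb null and 0.244 for Ednrb NCC null.

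**Figure D2:**
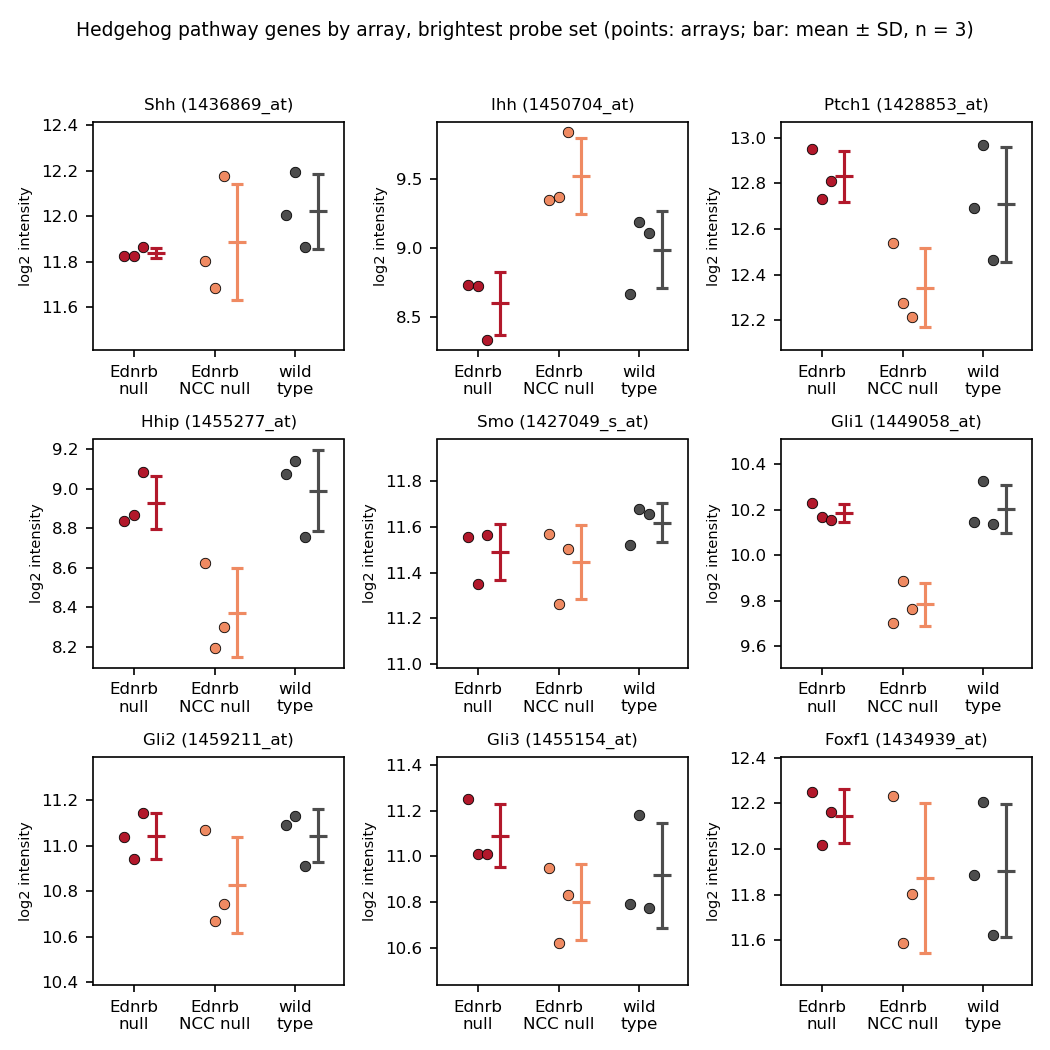
Each panel shows the brightest probe set of 1 gene, with log2 intensity on the vertical axis (ranges differ between panels), a point per array, and bars for the mean ± SD of 3 arrays. The Ednrb NCC null points stand below the other groups for Gli1 and Hhip and above them for Ihh, and the groups overlap for Shh, Smo and Foxf1.

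Gli1, a transcription factor whose own gene is switched on by Hedgehog signalling, was read by 1 probe set. It had 10.23, 10.17 and 10.15 in Ednrb null arrays, then 9.70, 9.89 and 9.77 in Ednrb NCC null arrays, and 10.15, 10.32 and 10.14 in wild type arrays. The Ednrb NCC null arrays were lower than all others, and Ednrb null and wild type lay in the same range. Gli1 was 1.34-fold lower in Ednrb NCC null than in wild type (log2 difference -0.42, SE 0.09, adjusted p = 0.0267) and 1.32-fold higher in Ednrb null than in Ednrb NCC null (0.40, adjusted p = 0.0294). Between Ednrb null and wild type the difference was -0.02 (95% interval -0.21 to 0.17, adjusted p = 0.946). The fall against wild type lost its call with only those groups fitted (adjusted p = 0.0671) and when Ednrb NCC null 2 (0.0798) or 6 (0.0987) or wild type 1B (0.0673) or 1C (0.0906) was left out. The call between the mutants was lost without Ednrb null 29 (0.126), 37 (0.0684) or 41 (0.0697) and without Ednrb NCC null 2 (0.0828) or 6 (0.104).

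Hhip, a membrane protein that binds Hedgehog ligands and blocks them, showed the same pattern in its brightest probe set. This had 8.84, 8.87 and 9.09 in Ednrb null arrays, then 8.63, 8.19 and 8.30 in Ednrb NCC null arrays, and 9.07, 9.14 and 8.76 in wild type arrays. All 3 Ednrb NCC null arrays were below all 6 others. Hhip was 1.54-fold lower in Ednrb NCC null than in wild type (-0.62, SE 0.14, adjusted p = 0.033) and 1.47-fold higher in Ednrb null than in Ednrb NCC null (0.56, SE 0.14, adjusted p = 0.0463), while Ednrb null differed from wild type by -0.06 (adjusted p = 0.876). The second probe set had 7.20, 7.13 and 7.27 in Ednrb null, then 7.13, 6.67 and 6.68 in Ednrb NCC null, and 7.36, 7.46 and 7.22 in wild type. It was called lower in Ednrb NCC null than in wild type at -0.52 (adjusted p = 0.0496), just inside the threshold, and this call was lost under 10 alternatives (adjusted p from 0.0622 to 0.175). The third Hhip probe set had 6.79, 6.64 and 6.86 in Ednrb null, then 6.63, 6.29 and 6.43 in Ednrb NCC null, and 7.25, 7.21 and 6.38 in wild type, and differed by -0.49 in Ednrb NCC null against wild type (adjusted p = 0.234). The fourth had 6.74, 6.67 and 6.59 in Ednrb null, then 6.41, 5.84 and 5.97 in Ednrb NCC null, and 6.93, 7.22 and 6.38 in wild type, and differed by -0.77 there (adjusted p = 0.0607). For both, wild type 1D lay inside the Ednrb NCC null range, and the mutants did not overlap.

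All 4 Hhip probe sets were thus below 0 in Ednrb NCC null against wild type, 2 of them called. Against wild type the call of the brightest was lost with only those groups fitted (adjusted p = 0.0726) and without Ednrb null 29 (0.0511), Ednrb NCC null 5 (0.128), Ednrb NCC null 6 (0.122), wild type 1B (0.128) or wild type 1C (0.0993). Between the mutants its call was lost without any 1 Ednrb null array (adjusted p from 0.0866 to 0.147), Ednrb NCC null 5 (0.168), Ednrb NCC null 6 (0.157) or wild type 1B (0.0643), and with centred or quantile-normalised arrays (0.0528 and 0.0541).

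**Figure D3:**
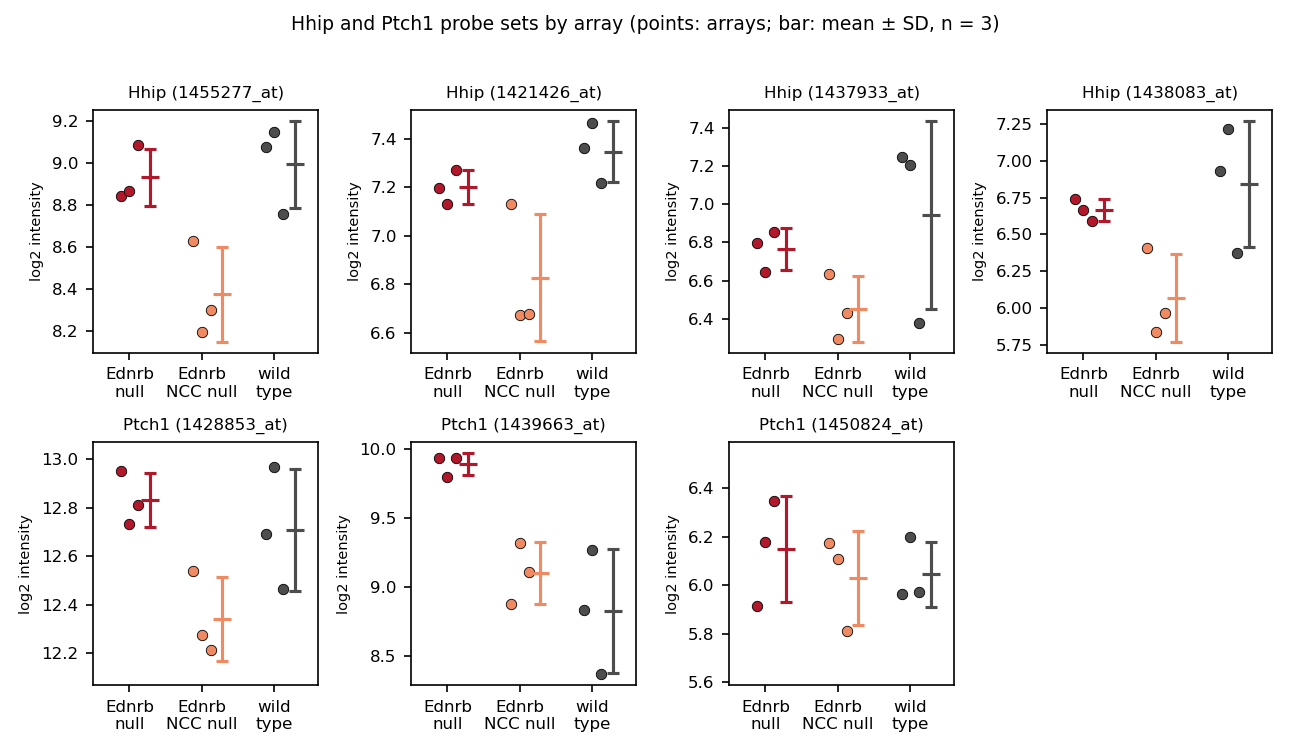
Log2 intensity of the 4 Hhip and 3 Ptch1 probe sets (vertical axis, ranges differ between panels), with a point per array and bars for the mean ± SD of 3 arrays. The Hhip probe sets have their lowest points in Ednrb NCC null, whereas the second Ptch1 panel is highest in Ednrb null and the first Ptch1 panel, its brightest probe set, lowest in Ednrb NCC null.

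Ptch1, the Hedgehog receptor that is also a target of the pathway, was read differently by its 3 probe sets. The brightest had 12.95, 12.73 and 12.81 in Ednrb null arrays, then 12.54, 12.28 and 12.21 in Ednrb NCC null arrays, and 12.69, 12.97 and 12.46 in wild type arrays. The mutants did not overlap, but wild type reached into both. Its differences were 0.49 for Ednrb null against Ednrb NCC null (adjusted p = 0.0719), -0.36 for Ednrb NCC null minus wild type (adjusted p = 0.187) and 0.12 for Ednrb null minus wild type (adjusted p = 0.715), and none passed.

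The second-brightest probe set had 9.94, 9.80 and 9.94 in Ednrb null arrays, then 8.87, 9.32 and 9.11 in Ednrb NCC null arrays, and 8.83, 9.27 and 8.37 in wild type arrays. All 3 Ednrb null arrays were above all others, and Ednrb NCC null and wild type overlapped. It was 2.10-fold higher in Ednrb null than in wild type (1.07, SE 0.19, adjusted p = 0.00838), which was called also without any 1 array. It was 1.73-fold higher in Ednrb null than in Ednrb NCC null (0.79, adjusted p = 0.0447), a call lost under 9 alternatives (adjusted p from 0.0655 to 0.665). The third probe set, among the dimmest 40%, differed from wild type by 0.10 in Ednrb null and by -0.01 in Ednrb NCC null, and by 0.12 between the mutants. Within an array, the log2 ratio of the second-brightest to the brightest Ptch1 probe set was -3.02, -2.93 and -2.87 in Ednrb null, then -3.67, -2.95 and -3.11 in Ednrb NCC null, and -3.86, -3.70 and -4.10 in wild type. In either mutant the ratio of every array lay above that of every wild type array, for Ednrb NCC null 2 by a narrow margin (-3.67 against -3.70). These ratios carry no test. Against wild type, neither of these probe sets was called in Ednrb NCC null, and only the second-brightest was called in Ednrb null. Which Ptch1 transcripts or regions each probe set reads was not analysed here.

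The 3' to 5' difference of the Actb control probe sets, a measure of RNA integrity and labelling, also set Ednrb null apart. On the log2 scale it was 0.90, 0.80 and 0.90 in Ednrb null arrays, then 1.40, 1.03 and 1.21 in Ednrb NCC null arrays, and 1.32, 1.08 and 1.14 in wild type arrays, with every Ednrb null array below every other. The same difference for Gapdh was 0.09, 0.12 and 0.15 in Ednrb null arrays, then 0.34, 0.14 and 0.23 in Ednrb NCC null arrays, and 0.27, 0.17 and 0.14 in wild type arrays, and there Ednrb null overlapped both other groups. With the Actb value as a covariate, the second-brightest Ptch1 probe set lost its call against wild type (adjusted p = 0.379). The calls between the mutants for Gli1 (0.603), Hhip (0.114) and Ihh (0.0977) were lost too. The differences did not all shrink with it. That of the Ptch1 probe set went from 1.07 to 0.77 and that of Gli1 from 0.40 to 0.23. In contrast, Hhip went from 0.56 to 0.85 and Ihh from -0.92 to -1.22, so these calls were lost at a larger difference. The Actb value and the Ednrb null genotype cannot be told apart with these arrays. The calls of Gli1 and Hhip in Ednrb NCC null against wild type were not lost with it.

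Smo, the transmembrane protein that carries the signal inward, was called in 0 of 3 comparisons for its 3 probe sets. The brightest averaged 11.49 ± 0.12 in Ednrb null, 11.45 ± 0.16 in Ednrb NCC null, against 11.62 ± 0.09 in wild type (SD, n = 3 each). The 95% interval of its difference ran from -0.36 to 0.10 for Ednrb null minus wild type, and from -0.40 to 0.06 for Ednrb NCC null minus wild type. The second Smo probe set differed from wild type by -0.15 in Ednrb null and by -0.20 in Ednrb NCC null. The third, among the dimmest 40%, differed by 0.09 and -0.37. Ednrb null minus Ednrb NCC null was 0.045 and 0.051 for the brightest and second probe sets. For the third it was 0.46 (95% interval 0.02 to 0.90, adjusted p = 0.264).

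Gli2 and Gli3, the factors through which the signal first acts, had 5 probe sets and 0 calls. The brightest Gli2 probe set averaged 11.04 ± 0.10 in Ednrb null, 10.83 ± 0.21 in Ednrb NCC null, against 11.04 ± 0.12 in wild type (SD, n = 3 each). Its difference in Ednrb NCC null against wild type was -0.22 (95% interval -0.47 to 0.04), which did not pass. The second Gli2 probe set had 9.89, 9.86 and 9.95 in Ednrb null, then 9.91, 9.53 and 9.55 in Ednrb NCC null, and 9.82, 9.82 and 9.77 in wild type. All Ednrb null arrays were above wild type there, by a difference of 0.10 (adjusted p = 0.715). The brightest Gli3 probe set had 11.25, 11.01 and 11.01 in Ednrb null, then 10.95, 10.62 and 10.83 in Ednrb NCC null, and 10.79, 11.18 and 10.77 in wild type. The second had 11.11, 10.71 and 10.82 in Ednrb null, then 10.68, 10.54 and 10.11 in Ednrb NCC null, and 10.50, 11.00 and 10.48 in wild type. For both, every Ednrb null array was above every Ednrb NCC null array, and wild type spanned the gap. Between the mutants all 3 Gli3 probe sets were above 0, at 0.29, 0.44 and 0.15 (adjusted p = 0.287, 0.235 and 0.503). The third Gli3 probe set was among the dimmest 40%.

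Foxf1, a forkhead factor of gut mesenchyme that Hedgehog induces, was called in no comparison by either probe set. The brightest had 12.25, 12.02 and 12.16 in Ednrb null arrays, then 12.23, 11.59 and 11.80 in Ednrb NCC null arrays, and 11.89, 12.21 and 11.62 in wild type arrays. All 3 groups overlapped, and the spread within Ednrb NCC null and within wild type exceeded the differences between groups. The difference of Ednrb NCC null from wild type was -0.03 (95% interval -0.42 to 0.35), and that of Ednrb null from wild type 0.24 (-0.15 to 0.62). The second probe set had 9.27, 8.82 and 9.15 in Ednrb null, then 8.79, 8.54 and 8.80 in Ednrb NCC null, and 8.54, 9.24 and 8.50 in wild type. There the mutants did not overlap, by a narrow margin, and their difference of 0.37 did not pass (adjusted p = 0.36).

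Of 7 mesenchymal markers 0 were called in each comparison. The mean of 7 markers lay between 12.62 and 12.80 in Ednrb null arrays, 12.45 and 12.78 in Ednrb NCC null arrays, and 12.68 and 12.93 in wild type arrays. Their summed intensity was 59470 to 67890 in Ednrb null, 56700 to 67450 in Ednrb NCC null, against 63200 to 71880 in wild type. Relative to that mean, Hhip was -3.77 ± 0.21 in Ednrb null, -4.25 ± 0.18 in Ednrb NCC null, against -3.85 ± 0.30 in wild type (SD, n = 3 each), and the Ednrb NCC null arrays lay below those of both other groups. From wild type they were parted by a narrow margin, since the highest of them had -4.15 and wild type 1D -4.14. Gli1 relative to the mean was -2.51 ± 0.10 in Ednrb null, -2.84 ± 0.21 in Ednrb NCC null, against -2.64 ± 0.24 in wild type. For Gli1 and for the brightest Ptch1 probe set, Ednrb NCC null lay below Ednrb null with no overlap and overlapped wild type. Foxf1 overlapped in each pair of groups. Smooth muscle markers had array means of 11.64 to 12.06 in Ednrb null, 12.30 to 12.53 in Ednrb NCC null, against 11.87 to 12.24 in wild type, with 1 of 6 lower in Ednrb null than in the wild type and 2 lower than in Ednrb NCC null. Mesothelial markers had array means of 8.69 to 8.89 in Ednrb null, 9.04 to 9.24 in Ednrb NCC null, against 6.69 to 8.67 in wild type, with 1 of 6 called, higher in Ednrb NCC null than in wild type. Macrophage markers had array means of 8.10 to 8.40 in Ednrb null, 8.70 to 8.74 in Ednrb NCC null, against 8.07 to 8.68 in wild type. In Ednrb NCC null 1 of 6 was called higher than in wild type, and in Ednrb null 2 of 6 were lower than in Ednrb NCC null. Cartilage markers, of which Acan and Matn1 were among the dimmest 40%, had array means of 6.83 to 7.05 in Ednrb null, 6.44 to 6.64 in Ednrb NCC null, against 6.62 to 6.64 in wild type. Their summed intensity was 1522 to 1850 in Ednrb null, 918.7 to 1172 in Ednrb NCC null, against 989 to 1278 in wild type. In Ednrb null 1 of 4 was called higher than in wild type and 2 of 4 higher than in Ednrb NCC null. Endothelial array means were 8.98 to 9.10 in Ednrb null, 8.70 to 9.07 in Ednrb NCC null, against 8.85 to 9.18 in wild type. Urothelial array means were 7.53 to 7.97 in Ednrb null, 7.81 to 8.03 in Ednrb NCC null, against 7.45 to 7.93 in wild type. Of 5 endothelial and 3 urothelial markers, 0 were called in each comparison. The part of these marker levels in the member differences was not tested.

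**Figure D4:**
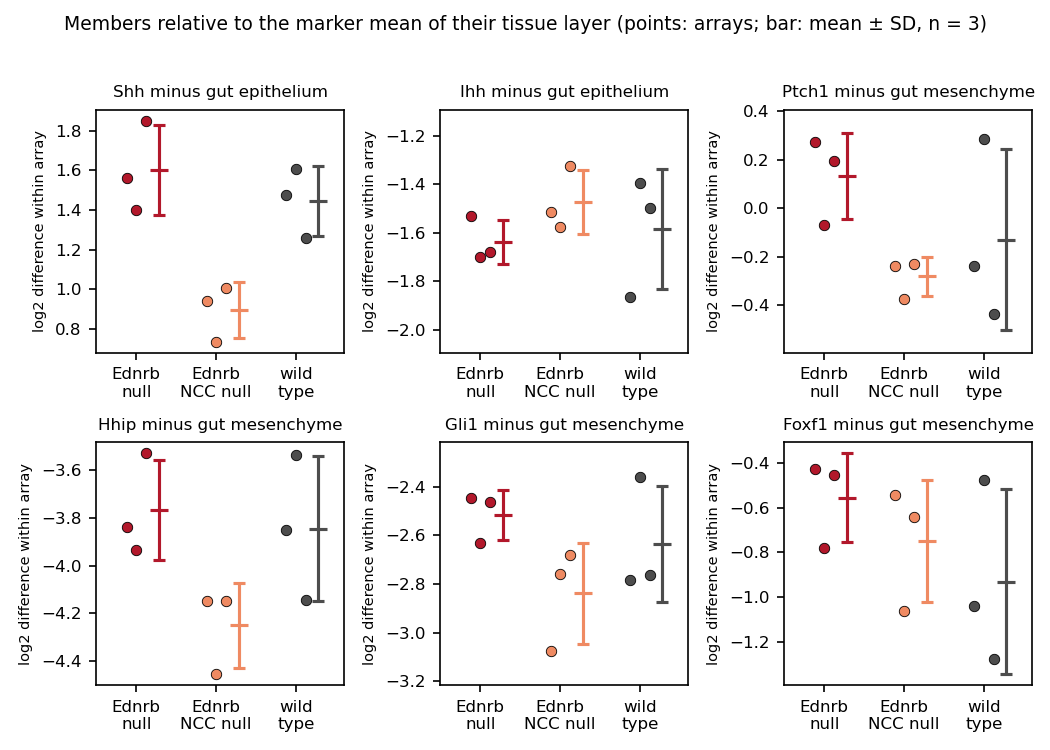
Log2 intensity of the brightest probe set of 6 genes minus the mean log2 intensity of epithelial markers (Shh, Ihh) or mesenchymal markers (Ptch1, Hhip, Gli1, Foxf1) in the same array; points are arrays and bars the mean ± SD of 3. Shh and Hhip are lowest in Ednrb NCC null with no overlap, for Hhip by a narrow margin to wild type 1D (-4.15 against -4.14), and Ihh and Foxf1 overlap between all groups.

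The wider pathway was read from 2 gene lists, with 29 measured genes of ligand release, reception and ciliary transduction and 12 measured targets in mesenchyme, 41 in all. In Ednrb NCC null against wild type, 3 of the 12 targets were lower and 0 higher, and 0 of 29 reception genes were called, where 3.90% of all genes were called in either direction. In Ednrb null against wild type 1 gene was higher and 2 lower, where 4.79% of all genes were called. Between the mutants 4 genes were higher in Ednrb null and 0 lower, where 5.29% of all genes were called. The median over the 41 genes was 0.06 for Ednrb null minus wild type, where it was 0.04 over all genes. It was -0.10 for Ednrb NCC null minus wild type, where all genes gave 0.02, and 0.15 for Ednrb null minus Ednrb NCC null, where all genes gave 0.01.

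Bmp4, a secreted signal of the mesenchyme that Hedgehog induces in the gut, had 12.47, 12.59 and 12.55 in Ednrb null arrays, then 11.88, 12.07 and 11.83 in Ednrb NCC null arrays, and 12.47, 12.47 and 12.49 in wild type arrays. Each Ednrb NCC null array was below all others. Bmp4 was 1.47-fold lower in Ednrb NCC null than in wild type (-0.55, SE 0.09, adjusted p = 0.00598), a call kept under all 18 alternatives. It was 1.53-fold higher in Ednrb null than in Ednrb NCC null (0.61, adjusted p = 0.00346), a call lost with the Actb value as covariate (0.48, adjusted p = 0.192). Its promoter window held 0 GLI cores, as did those of Gpc3, Gpc4 and Evc below, and that of Foxf2 held 2.

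Foxf2, a forkhead factor close to Foxf1, had 9.29, 9.11 and 9.21 in Ednrb null arrays, then 8.67, 8.27 and 8.38 in Ednrb NCC null arrays, and 9.33, 9.55 and 8.85 in wild type arrays. Ednrb NCC null was again below both other groups, though wild type 1D came close. Foxf2 was 1.74-fold lower in Ednrb NCC null than in wild type (-0.80, SE 0.16, adjusted p = 0.0241) and 1.70-fold higher in Ednrb null than in Ednrb NCC null (0.76, adjusted p = 0.0267). The fall lost its call with only those groups fitted (adjusted p = 0.0697) and without Ednrb NCC null 5 (0.102), Ednrb NCC null 6 (0.0941), wild type 1B (0.101) or wild type 1C (0.0674), and its other probe set differed from wild type by 0.03. The call between the mutants was lost with the Actb value as covariate (0.143), where the difference was larger at 1.03. It was lost also without Ednrb null 29 (0.11), 37 (0.0551) or 41 (0.0829) or Ednrb NCC null 5 (0.11) or 6 (0.0995). Between the mutants the other Foxf2 probe set differed by 0.065 (adjusted p = 0.854), with overlapping arrays.

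Ccnd1, the cyclin D1 gene and a cell cycle target of several pathways, was lower in both mutants. It had 10.62, 10.81 and 10.84 in Ednrb null arrays, then 10.69, 10.66 and 10.73 in Ednrb NCC null arrays, and 11.22, 11.28 and 11.60 in wild type arrays. Its difference from wild type was -0.61 in Ednrb null (adjusted p = 0.00832) and -0.67 in Ednrb NCC null (adjusted p = 0.00797). The other Ccnd1 probe sets were also called in Ednrb NCC null, at -0.84 (adjusted p = 0.0149) and -0.51 (adjusted p = 0.0105), and gave -0.38 and -0.24 in Ednrb null without passing (adjusted p = 0.227 and 0.173). The call in Ednrb null was lost with the Actb value as covariate (adjusted p = 0.15), at a difference of -0.67. That in Ednrb NCC null was kept under all 18 alternatives.

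Of the reception list, the glypican gene Gpc3, whose protein binds Hedgehog and limits its signal, had 12.76, 12.68 and 12.68 in Ednrb null arrays, then 12.41, 12.28 and 12.33 in Ednrb NCC null arrays, and 12.12, 12.21 and 12.21 in wild type arrays. The groups formed 3 steps without overlap. Gpc3 was 1.44-fold higher in Ednrb null than in wild type (adjusted p = 0.00261) and 1.29-fold higher than in Ednrb NCC null (adjusted p = 0.0253), and its difference of 0.16 in Ednrb NCC null from wild type did not pass (adjusted p = 0.336). With the Actb value as covariate both calls were lost (adjusted p = 0.0765 and 0.26), at log2 differences of 0.57 and 0.41, against 0.53 and 0.37 without it. The call between the mutants was lost also without Ednrb null 29 (0.117), 37 (0.0565) or 41 (0.0605) or Ednrb NCC null 5 (0.0896) or 6 (0.092). Gpc4, another glypican, was 1.37-fold lower in Ednrb null than in the wild type (adjusted p = 0.0253), and its other probe set gave -0.21. That call was lost with the Actb value as covariate (adjusted p = 0.50), where the log2 difference went from -0.45 to -0.35. It was lost also without Ednrb null 29 (0.11), Ednrb null 37 (0.0954), wild type 1B (0.0532), wild type 1C (0.073) or wild type 1D (0.0569). Evc, a ciliary protein that acts beside Smo, was 1.31-fold higher in Ednrb null than in Ednrb NCC null (adjusted p = 0.0225), and its other probe set gave 0.24. That call was lost with the Actb value as covariate (adjusted p = 0.458), where the log2 difference went from 0.39 to 0.30. It was lost also without Ednrb null 29 (0.079), 37 (0.0709) or 41 (0.0525) or Ednrb NCC null 6 (0.0973).

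**Figure D5:**
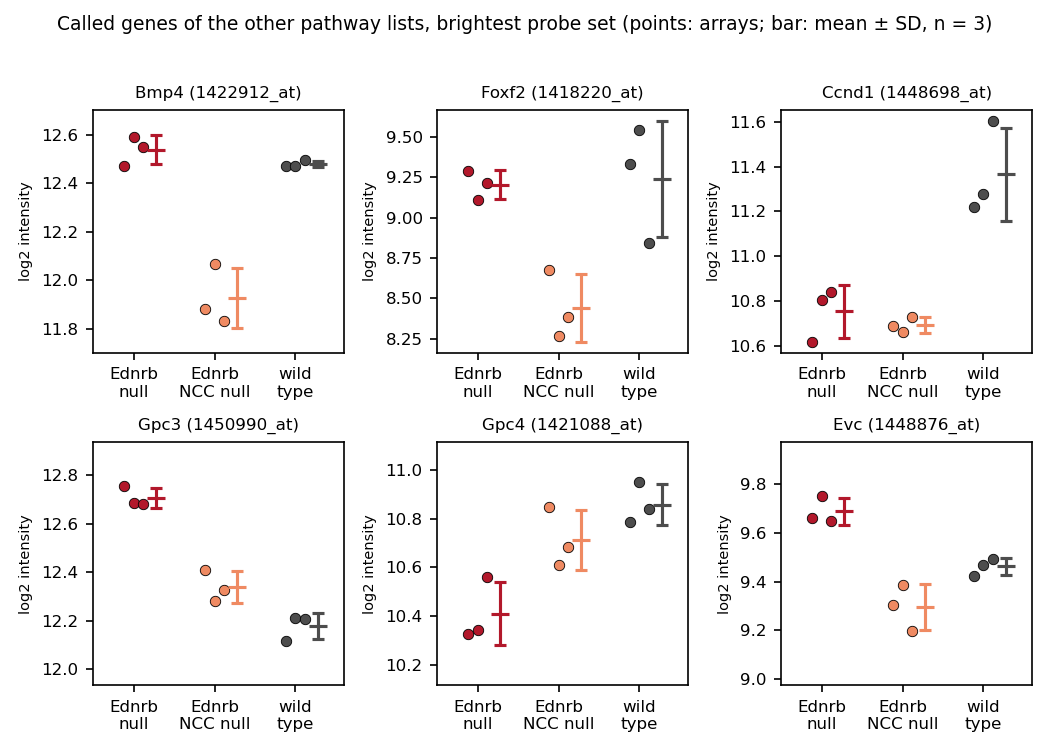
Log2 intensity of the brightest probe set of the 6 called genes of the wider pathway (vertical axis, ranges differ between panels), with a point per array and bars for the mean ± SD of 3 arrays. Bmp4 and Foxf2 are lowest in Ednrb NCC null, Ccnd1 is lower in both mutants than in wild type, and Gpc3 is highest in Ednrb null.

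Correlations over the 9 arrays were computed for 6 pairs of genes, and they include the differences between the groups. Among the response genes, Ptch1 and Hhip had Pearson r = 0.87 (exact permutation test, 2-sided p = 0.00281, adjusted p = 0.0169) and Spearman rho = 0.85 (p = 0.00607, adjusted p = 0.0182). Ptch1 and Gli1 had r = 0.80 (p = 0.012, adjusted p = 0.0361) and rho = 0.88 (p = 0.00308, adjusted p = 0.0182). With group means removed r was 0.73 for Ptch1 with Hhip and 0.37 for Ptch1 with Gli1. Without Ednrb NCC null 5 and 6, the arrays farthest from the median of Ptch1, r was 0.64 and 0.66. Ihh had r = -0.71 to Ptch1 (p = 0.0335, adjusted p = 0.067; rho = -0.60, p = 0.0968, adjusted p = 0.194) and r = -0.68 to Gli1 (p = 0.0501, adjusted p = 0.0752; rho = -0.55, p = 0.133, adjusted p = 0.199), neither past the threshold. With group means removed these values were -0.09 and 0.30, and without Ednrb null 41 and Ednrb NCC null 6 they were -0.55 and -0.60. Shh had r = 0.12 to Ptch1 (p = 0.756, adjusted p = 0.756; rho = 0.23, p = 0.54, adjusted p = 0.54) and 0.17 to Gli1 (p = 0.657, adjusted p = 0.756; rho = 0.33, p = 0.375, adjusted p = 0.45). With group means removed these values were 0.22 and 0.13, and without Ednrb NCC null 6 and wild type 1C they were 0.48 and 0.49.

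As a description over the same 9 arrays and 11640 genes, the genes whose log2 values were most like those of Gli1 were Zfp322a (r = 0.967), Mmrn2 (r = 0.966) and Ufd1 (r = 0.959). For Shh they were Gm5124 (r = 0.947), Tmem87b (r = 0.909) and Blmh (r = 0.881). These values carry no test, and the arrays share their groups.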

How the data were processed

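Intensity values deposited by the authors, 1 for each probe set on each array, came from RMA, per the submitters' processing notes, and were on a linear scale from 5.6912 to 61637. The version was not given in the sources used here. Such processing corrects background, gives arrays a common distribution and understates small changes of dim probe sets. The values were taken to log2 with no pseudocount, filter or further normalization, and array number limits the precision.

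Of 45101 probe sets, 64 controls were left out; 34945 named 1 gene, 932 several, and 9160 were not in the gene table. The model, fitted with limma 3.58.1 (lmFit, eBayes) in R 4.3.3 on the 9 arrays together, had a mean for each group, and p-values were 2-sided, adjusted over 45037 probe sets, and the fit was tested on simulated data. Gene lists used the brightest probe set per gene. Correlations used exact permutations (scipy 1.17.1).

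The members, gene lists and tests were chosen with earlier results of these data known. All member probe sets are accounted for. Array values are given for members that were called or did not overlap between groups, up to 8 called genes of the wider lists are named, and so are the 3 genes most like Shh and Gli1. Alternatives were other normalizations, filters, models and thresholds, and leaving out each array.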

Additional observations from a re-analysis of the deposited data

How the results depend on the processing

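Each difference of the 21 member probe sets and of the called genes of the wider lists was recomputed under 18 alternatives, which gave 1410 values. Of these 1311 kept their side of the threshold, 80 lost a call, 19 gained 1 and 0 of the called differences turned direction. Most of the 1311 belong to differences that were not called to begin with, whereas all 80 losses fell on the 18 called differences. The second Hhip probe set in Ednrb NCC null against wild type kept its call under 7 alternatives and lost it under 10. Bmp4 and Ccnd1 in Ednrb NCC null against wild type kept their calls under all 18. Of 1 member probe set called in Ednrb null against wild type, 0 were left with only the brightest probe set of each gene, since the called Ptch1 probe set is not the brightest, and 0 with the Actb 3' to 5' value as a covariate; leaving out 1 array gave 1 to 2, with 2 without wild type 1C. Of 3 called in Ednrb NCC null against wild type, 0 were left with only the 2 groups compared, and leaving out 1 array gave 0 to 5, with 0 without Ednrb NCC null 6, wild type 1B or wild type 1C, 1 without Ednrb null 29 or Ednrb NCC null 5, and 5 without wild type 1D. Of 4 called between the mutants, 2 were left with quantile normalization and 0 with the Actb covariate, array weights gave 7, and leaving out 1 array gave 0 to 6, with 0 without Ednrb null 41 or Ednrb NCC null 6, 1 without Ednrb null 29 or 37, and 2 without Ednrb NCC null 5 or wild type 1B. For the wider lists, the 3 genes called in Ednrb null and the 3 in Ednrb NCC null, each set against wild type, and the 4 between the mutants became 5, 5 and 7 at an adjusted p under 0.10. Array weights gave 6 in the first and 9 in the third, the Actb covariate 0 in both, and leaving out 1 array 1 to 7 in the third, with 7 without Ednrb NCC null 2, 2 without Ednrb NCC null 5 and 1 without Ednrb NCC null 6 or any 1 Ednrb null array. Over all probe sets, 1131 higher and 1134 lower in Ednrb null against wild type became 177 and 362 with the Actb covariate and 591 and 739 without Ednrb null 29. Between the mutants 827 and 1157 became 65 and 218 with that covariate, 288 and 578 without Ednrb null 29 and 1900 and 1809 with array weights. In Ednrb NCC null against wild type 930 and 681 became 587 and 455 with only the 2 groups compared and 329 and 387 without Ednrb NCC null 6. The causes of these changes were not tested. No paired analysis was possible because the groups share no replicate numbers. Differences of the 4 member probe sets among the dimmest 40% are limited by their low signal.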
